A study of Mus musculus with 10 samples.

Results

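Homeobox genes encode transcription factors that bind DNA through a homeodomain, and the 44 genes described here lie outside the Hox clusters. Accessible regions were chosen for them by position alone: overlapping peaks of the 3 deposited lists (by 1 bp or more) were joined into regions, and each region went to its closest protein-coding gene, no further than 100 kb away, with distance 0 for a region inside a gene. This gave 243 of the 64911 regions to these genes. Regions were found for 38 of the 44 genes (86.4%), against 72.5% of the 21883 protein-coding genes used. The 6 genes with no region at any age were Pbx2, Alx1, Otx1, Otx2, Gbx2 and Hmx2.

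ATAC-seq, which uses a transposase to cut and tag open chromatin, was run on both cochleae of single CD1 mice, an outbred stock. Of the animals, 3 were taken on postnatal day 2 (P2), 3 on day 5 (P5) and 4 on day 8 (P8). The labels give no allele, treatment or sort of cell types for any group. Each age was represented by 1 peak list, with 52085, 47683 and 43878 peaks for P2, P5 and P8, so differences between ages had no replicate check and no p-value was computed. Read depth is unknown from these lists, and the weakest peak called had a −log10 p-value of 19.5, 13.5 and 11.4 in the P2, P5 and P8 lists. At 1 or more ages, regions were called beside all listed marker genes of cochlear hair cells, supporting cells and otic mesenchyme and beside 3 of 4 of spiral ganglion neurons (none beside Nefh). The same held for all listed markers of bone, skeletal muscle and brain. The summed regions of the bone markers numbered 20, 22 and 30 in the P2, P5 and P8 lists, those of the muscle markers 6, 3 and 3, and those of the brain markers 16, 14 and 14. Hair cell markers had 17, 12 and 12, supporting cell markers 19, 20 and 15, otic mesenchyme markers 14, 10 and 12, and neuron markers 10 at each age. The part of these cell types in the results was not tested. In whole tissue, fewer nuclei of a type and less accessibility per nucleus cannot be told apart.

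Homeobox factors act in families. The TALE proteins Meis and Pbx bind DNA together with other homeodomain proteins, and the Iroquois genes (Irx), of the same class, lie in 2 clusters and take part in regional patterning. Dlx and Msx genes are known for their roles in craniofacial mesenchyme, bone and teeth, the paired-like genes Prrx, Alx and Pitx for roles in skeletal and limb mesenchyme, and the zinc finger homeobox genes Tshz and Zfhx combine zinc fingers with homeodomains. In the inner ear, Lmx1a is known for separating sensory from non-sensory epithelium, Emx2 for setting hair bundle orientation, and Dlx5, Hmx2 and Hmx3 for vestibular development.

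Most of the regions over the start sites of these genes were called at all 3 ages. The RefSeq promoter table (build GRCm38.p6), with windows from 250 bases before to 50 after a start, held 40 windows for 30 of the 44 genes. A region lay over a window of 18 of them (for Tshz3 one that is closer to the gene Gm36722). It was called at all 3 ages for 14, at P2 and P8 for Lmx1a (by an overlap of only 6 bases), at P2 and P5 for Lhx2, and at P2 alone for Prrx2 and Onecut1. For Lhx2 it lay over 1 of 2 start sites. For comparison, 80.2% of all regions within 1 kb of gene ends were called at all 3 ages, a share near the 14 of 18 here. No share over the promoter windows of all genes was computed. The windows of the 3 genes whose start region was no longer called at P8 (Prrx2, Onecut1, Lhx2) are shown first, followed by 3 whose region was called at every age: Irx2, whose region had the highest percentile of the covered windows at P2, and Six2 and Msx2, each with a homeodomain motif. The windows shown were chosen after their values were seen. Each is 5′ to 3′ on the gene's strand, with capitals marking motif matches.
Prrx2, chr2:30845117-30845416, plus strand: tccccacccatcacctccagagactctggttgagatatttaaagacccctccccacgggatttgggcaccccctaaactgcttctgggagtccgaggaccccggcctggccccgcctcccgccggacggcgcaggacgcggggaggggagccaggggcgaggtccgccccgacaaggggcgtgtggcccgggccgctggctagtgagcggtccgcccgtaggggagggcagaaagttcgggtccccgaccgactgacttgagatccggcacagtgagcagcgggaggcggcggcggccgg
Onecut1, chr9:74861671-74861970, plus strand: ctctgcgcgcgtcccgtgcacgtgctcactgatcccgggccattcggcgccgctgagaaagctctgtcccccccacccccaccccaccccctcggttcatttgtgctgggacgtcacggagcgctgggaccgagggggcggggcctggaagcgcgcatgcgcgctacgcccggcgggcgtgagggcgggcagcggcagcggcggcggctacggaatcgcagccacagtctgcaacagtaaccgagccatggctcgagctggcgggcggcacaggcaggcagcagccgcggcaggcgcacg
Lhx2, chr2:38351058-38351357, plus strand: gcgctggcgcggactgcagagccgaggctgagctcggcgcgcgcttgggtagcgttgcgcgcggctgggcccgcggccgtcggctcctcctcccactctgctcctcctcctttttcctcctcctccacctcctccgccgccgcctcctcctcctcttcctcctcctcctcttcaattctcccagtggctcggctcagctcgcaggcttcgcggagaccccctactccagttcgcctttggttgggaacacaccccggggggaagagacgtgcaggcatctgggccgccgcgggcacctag
Irx2, chr13:72628570-72628869, plus strand: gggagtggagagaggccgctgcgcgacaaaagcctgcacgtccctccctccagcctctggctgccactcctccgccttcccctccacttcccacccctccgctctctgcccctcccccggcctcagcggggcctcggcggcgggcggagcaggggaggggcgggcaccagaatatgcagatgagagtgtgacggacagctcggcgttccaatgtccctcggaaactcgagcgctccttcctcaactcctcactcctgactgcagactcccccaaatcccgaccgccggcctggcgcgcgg
Six2, chr17:85688205-85688504, minus strand: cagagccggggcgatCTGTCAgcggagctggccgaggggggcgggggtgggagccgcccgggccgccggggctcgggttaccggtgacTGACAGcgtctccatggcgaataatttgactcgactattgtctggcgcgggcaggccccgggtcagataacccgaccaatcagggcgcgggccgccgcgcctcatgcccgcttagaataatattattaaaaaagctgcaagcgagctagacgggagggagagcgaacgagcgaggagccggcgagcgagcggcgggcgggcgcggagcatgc
Msx2, chr13:53472731-53473030, minus strand: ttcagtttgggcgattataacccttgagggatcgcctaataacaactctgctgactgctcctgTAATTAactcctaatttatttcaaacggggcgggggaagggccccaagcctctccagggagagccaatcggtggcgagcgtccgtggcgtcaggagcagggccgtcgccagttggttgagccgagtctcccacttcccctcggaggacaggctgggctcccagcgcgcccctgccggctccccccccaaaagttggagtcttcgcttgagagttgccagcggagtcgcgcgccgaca

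The windows of Prrx2, Onecut1 and Lhx2 were GC-rich, at 70.3%, 73% and 69.3% G and C, as were those of Irx2 at 69%, Six2 at 67.3% and Msx2 at 61%. Their ratios of observed to expected CpG were 0.756, 0.951 and 0.835 for Prrx2, Onecut1 and Lhx2, against 0.723, 1.13 and 0.789 for Irx2, Six2 and Msx2. Motifs searched on both strands were TAATTA (many homeodomains), TGACAG (Meis), TAATCC (Otx and Pitx) and ATCAAT (Onecut and Pbx). None of the 4 was found in the windows of Prrx2, Onecut1, Lhx2 or Irx2. The Six2 window held TGACAG on each strand, at positions -235 and -162 from the start, and the Msx2 window held TAATTA at position -187. The Isl1 window, not shown, also lay under a region called at every age and held TAATCC at position -177. Of the 40 windows of these genes, 5 held TAATTA (12.5%) and 2 each of the others (5%). Of all 32851 windows in the table, the shares were 5.29% (TAATTA), 19.2% (TGACAG), 7.06% (TAATCC) and 7.54% (ATCAAT). At such counts, and with windows of 1 gene that can overlap, these shares cannot be told apart reliably. The TAATTA windows include those of Otx2, which had no region, and the ATCAAT windows are overlapping windows of Satb1 that share a match. A match is a description of the letters and not a bound site.

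In the full lists, fewer regions of these genes were called at P8 than at P2, and calls turned over in both directions. The 38 genes with regions had 191 in the P2 list, 156 in the P5 list and 142 in the P8 list. All regions with a gene numbered 48110, 43562 and 40537 in the same lists. A region called at P2 and not at P8 is termed lost, the reverse gained, and one called at both kept. Of the 191 P2 regions, 83 were lost (43.5%, 95% Wilson interval 36.6 to 50.5), against 31.7% of all regions with a gene (15260 of 48110). Of the 142 P8 regions, 34 were gained (23.9%, 17.7 to 31.6), against 19.0% of all (7687 of 40537). Intervals here cover counting error only and treat regions as independent, although regions of 1 gene share a locus. The P2 list is also the longest. At equal list length these genes had 149, 139 and 142 regions at P2, P5 and P8, with 50 lost and 43 gained from P2 to P8. The share lost was then 33.6%, against 24.1% of all regions, and the share gained 30.3%, against 23.5%.

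The regions of these genes lay more often away from gene ends and low in the lists than regions of all genes. Near gene ends a larger share of them was lost when place in the list was set aside. Only 12.8% (9.13 to 17.5) of their regions lay within 1 kb of an end of a protein-coding gene, against 21.9% of all regions with a gene. Of those over 1 kb away, 44.7% (37.3 to 52.4) of P2 regions were lost, against 38.1% of all such regions, and 27.0% (20.0 to 35.5) of P8 regions were gained, against 24.7%. Of those within 1 kb, 11 of 30 P2 regions were lost (36.7%, 21.9 to 54.5), against 13.3% of all such regions, and 1 of 20 P8 regions was gained (5%, 0.888 to 23.6), against 3.92%. Among these shares, only that of losses within 1 kb had an interval that excluded the share of all such regions. Near gene ends 58.1% (40.8 to 73.6) of regions were called at all 3 ages, against 80.2% of all such regions. A peak's place is given as a percentile by the authors' ranking value within its own list, with 100 at the top. Of the P2 regions 36.6% (30.1 to 43.7) lay in the upper 50% of the list, against 51.3% of all regions with a gene, and the share at P8 was 39.4% (31.8 to 47.7), against 51.2%. Within the lower 50% of the P2 list 62.8% (53.9 to 70.9) of their regions were lost, against 57.2% of all, and within the upper 50%, 10% (4.93 to 19.2), against 7.53%. Both of these intervals include the shares of all regions. Within 1 kb of gene ends, 11 of 15 regions in the lower 50% of the P2 list were lost (73.3%, 48.0 to 89.1), against 57.4% of all such regions. In the upper 50%, 0 of 15 were lost (0 to 20.4%), against 3.01%. These intervals also include the shares of all such regions. Of all P2 regions near gene ends, 2329 of 12365 lay in the lower 50%.

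Only 40.3% (34.4 to 46.6) of the regions, 98 of 243, were called at all 3 ages, against 51.9% of all regions with a gene. Regions called at P2 alone made up 23.5% (18.6 to 29.2), against 15.8% of all. The shares called at P8 alone (8.23%, against 7.19%) and at P5 alone (7.41%, against 5.84%) lay within the counting error of the shares of all regions. From P2 to P5 67 regions were lost (35.1%, 28.7 to 42.1, against 23.8% of all) and 32 gained (20.5%, 14.9 to 27.5, against 15.8%). From P5 to P8 44 were lost (28.2%, 21.7 to 35.7, against 21.5%) and 30 gained (21.1%, 15.2 to 28.6, against 15.7%). Of the regions over 1 kb from gene ends, 35.4% were lost from P2 to P5 (28.2% of all such regions) and 23.5% gained (20.2%), and 30.9% were lost from P5 to P8 (26.7%) and 23.0% gained (19.7%). Both steps share the P5 list.

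**Figure D1:**
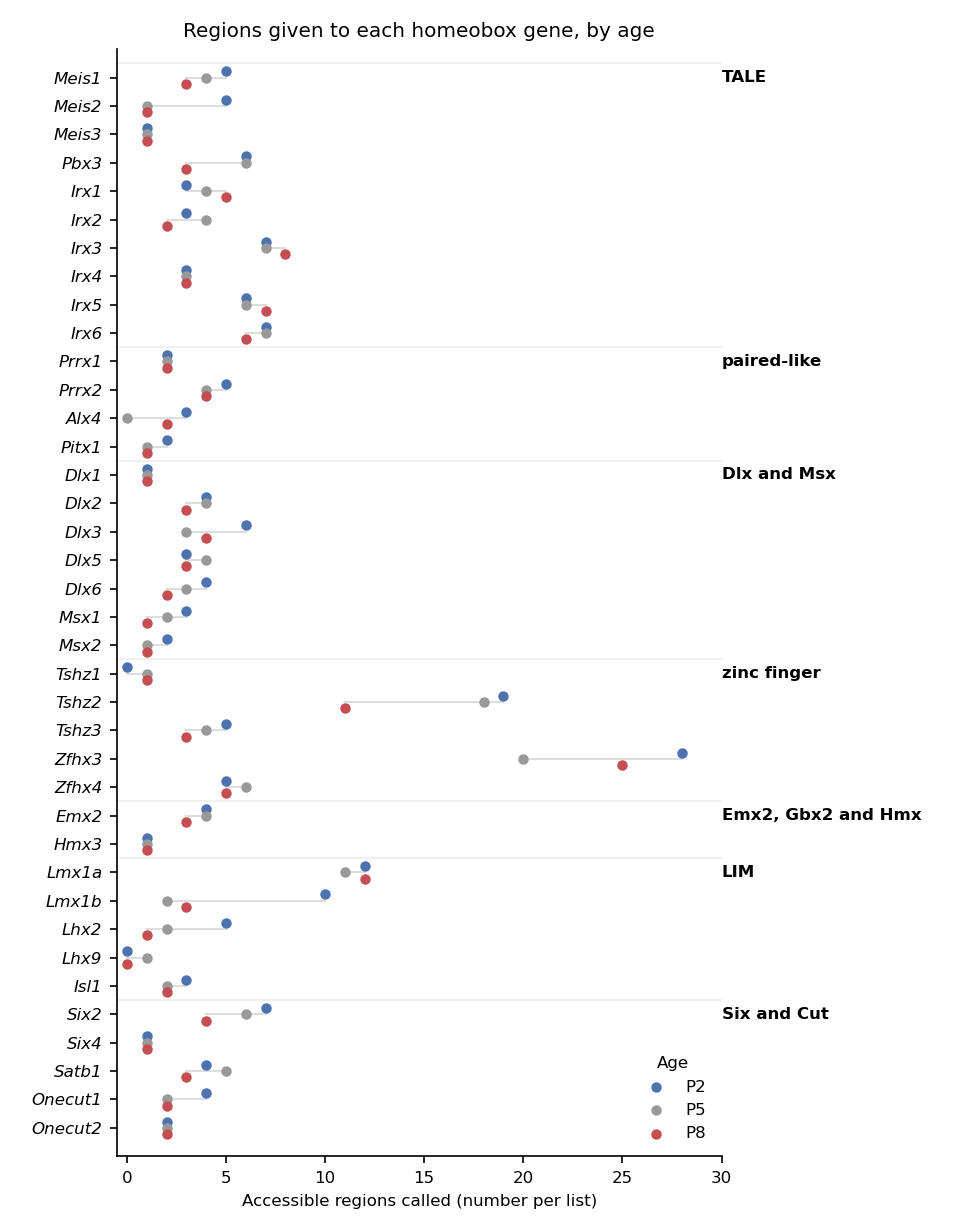
Number of accessible regions called for each of the 38 homeobox genes with a region (horizontal axis) at P2, P5 and P8 (points, 1 list per age), grouped by family. Zfhx3 and Tshz2 hold the most regions, and Lmx1b has 10, 2 and 3 in the lists of P2, P5 and P8.

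By gene, losses in the full lists outnumbered gains for most genes, and in sum for each of the 7 families. The net gain, gained minus lost regions from P2 to P8, was above 0 for 4 genes (10.5%), below 0 for 23 (60.5%) and 0 for 11 (28.9%), against 13.9%, 38.1% and 48.0% of all 15861 genes with a region. The genes above 0 were Irx1, Irx3, Irx5 and Tshz1. The balance of several families depended on list length. At equal list length TALE genes had 11 lost and 13 gained, paired-like genes 5 and 6, and zinc finger genes 17 and 17. Losses still outnumbered gains for Dlx and Msx genes (5 and 2), LIM genes (7 and 4) and the family of Six2 and Onecut1 (4 and 1). The family of Emx2 and Hmx3 was not counted at that length. The 38 genes had a median of 5 regions and all genes with a region a median of 2. As further background, 118 homeobox genes outside the Hox clusters that are not among the 44 were listed from the same classes. Of the 105 of them with a region, 13 had a net gain and 54 a net loss, and 42.0% (36.9 to 47.4) of their P2 regions were lost and 21.2% (16.6 to 26.8) of their P8 regions gained.

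**Figure D2:**
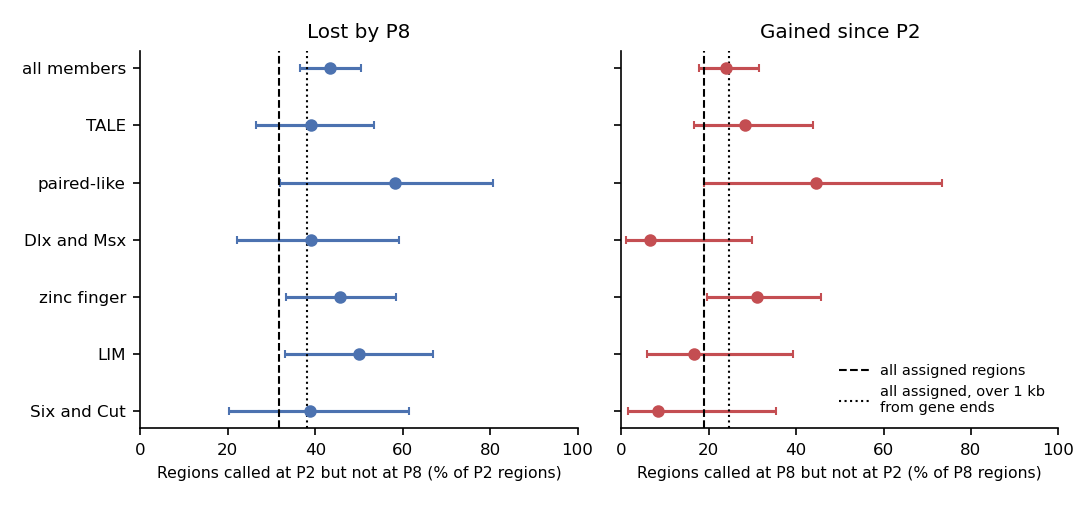
Share of P2 regions not called at P8 (left) and of P8 regions not called at P2 (right), in percent, for all 44 genes and for the families with more than 5 regions. Points are shares and bars are 95% Wilson intervals (counting error only). Lines mark all regions with a gene, 31.7% lost and 19.0% gained (dashed), and those over 1 kb from gene ends, 38.1% and 24.7% (dotted). The interval of every family shown spans at least 1 of the lines in each panel.

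Among the TALE genes, Meis and Pbx genes had losses without gains, while Irx genes had both. The 10 TALE genes with regions had 46, 43 and 39 over P2, P5 and P8, with 18 lost (39.1%, 26.4 to 53.5) and 11 gained (28.2%, 16.5 to 43.8), intervals that include the 31.7% and 19.0% of all regions. All 11 gained regions belonged to Irx genes. Meis1, Meis2, Meis3 and Pbx3 together had 17, 12 and 8 regions over P2, P5 and P8, with 9 lost and 0 gained, while the 6 Irx genes had 29, 31 and 31, with 9 lost and 11 gained. The 6 Irx genes lost 31.0% (17.3 to 49.2) of P2 regions, about the 31.7% of all, and gained 35.5% (21.1 to 53.1) of P8 regions. The interval of the share gained lies above 19.0% but includes the 24.7% of all regions over 1 kb from gene ends. The Meis and Pbx genes lost 52.9% (31.0 to 73.8), an interval that includes the 31.7% of all regions. Their 0 of 8 gained regions have an interval of 0 to 32.4% that includes 19.0%. With every gene within 50 kb counted, Meis and Pbx genes lost 30%, against 31.2% of all regions, and gained 16%, and Irx genes gained 12.5%, against 18.3%. The difference between the groups was not tested, and the genes were divided this way with their values known.

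Meis2, a cofactor of Hox and Pax proteins, had 5 regions in the P2 list and 1 in each later list. All of its 4 lost regions were called at P2 alone, and at equal list length it lost 1. The highest of them in the P2 list, at percentile 33.5, lay inside the gene at chr2:116065518-116066016, and the kept region at chr2:115855747-115856246 lay 5.02 kb beyond the gene, at percentiles 40.4, 30.9 and 12.1 at P2, P5 and P8. Pbx3, which encodes a partner of Meis and Hox proteins, had 6, 6 and 3 regions at P2, P5 and P8. Its highest kept region, at chr2:34372571-34373079 and 0.526 kb outside the gene's higher-coordinate end, stood at percentiles 88.5, 88.6 and 91.4. A Pbx3 region 86.5 kb outside the gene, chr2:34084435-34084937, was the highest-ranked lost TALE region, at percentile 55.0 at P2 and 3.46 at P5. Meis1, a Hox cofactor, had 5, 4 and 3 regions, and the one over its start, chr11:19018764-19019277, was called throughout at percentiles 66.8, 20.4 and 36.3. Meis3 had a single region, over its start and called at every age at percentiles of 73.5 to 75.0.

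The Irx genes kept their highest-ranked regions, and most of the regions they gained lay over 50 kb away. Of the 11 gained Irx regions 9 lay over 50 kb from the gene, and of the 9 lost ones 5. Some lay close to this limit, at 50.2 and 50.5 kb (gained) and at 50.7 and 52.1 kb (lost). The share over 50 kb was not computed for kept Irx regions or for regions of all genes. Irx3 had 7, 7 and 8 regions over P2, P5 and P8, Irx5 6, 6 and 7, Irx6 7, 7 and 6, Irx1 3, 4 and 5, Irx2 3, 4 and 2, and Irx4 3 at each age. The region over the Irx2 start, chr13:72628514-72629021, stood at percentiles 92.7, 89.1 and 92.6 at P2, P5 and P8, and that over the Irx3 start, chr8:91801255-91801818, at 87.8, 84.9 and 85.1. The highest of all 243 regions lay 1.28 kb from Irx5, at chr8:92355939-92356514, at percentiles 97.4, 97.2 and 97.7. An Irx6 region 67.0 kb from the gene, chr8:92747940-92748439, was called at every age, at percentiles 51.3, 85.9 and 93.4. The highest gained region among the TALE genes was nearest to Irx1, at chr13:71859994-71860502 and 97.7 kb outside it, with no call at P2, percentile 28.2 at P5 and 60.3 at P8. A gained region 81.9 kb from Irx4, chr13:73177155-73177687, stood at 36.1 at P5 and 59.2 at P8.

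Because many Irx regions lay far from any gene, both clusters were also counted as whole windows that reach 100 kb beyond the outer genes. In the Irx3, Irx5 and Irx6 window on chromosome 8 (1082 kb), 36, 36 and 41 regions were called over P2, P5 and P8, with 16 gained, 11 lost and 25 kept. Of these 55 regions, 28 were given to the Irx genes, 2 to Fto and Mmp2, and 25 had no protein-coding gene within 100 kb. In the Irx1, Irx2 and Irx4 window on chromosome 13 (1511 kb), the counts were 20, 19 and 18, with 7 gained, 9 lost and 11 kept. The direction of both windows depended on the peaks counted. At equal list length the chromosome 8 window had 18 gained and 8 lost and the chromosome 13 window 9 and 5, but with only peaks at an irreproducible discovery rate (IDR) of at most 0.01 they had 11 and 12, and 8 and 6. The gains given to Irx genes also lay mostly far out: with genes no more than 50 kb away, 8.70% of TALE P8 regions were gained, and Irx1 had 0 gained and 1 lost.

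**Figure D3:**
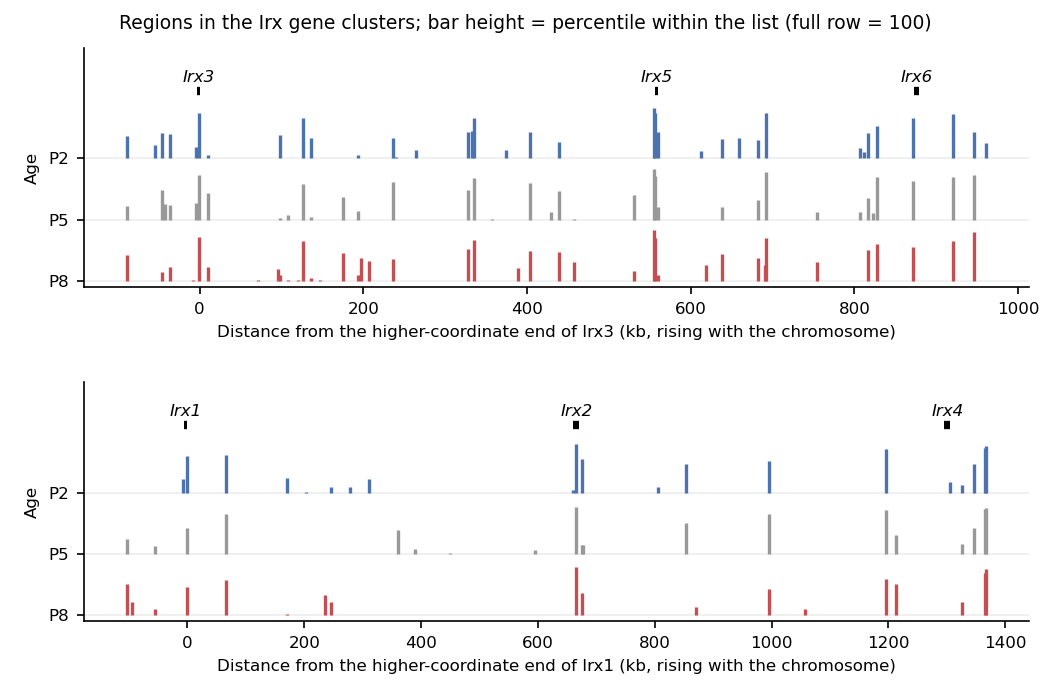
Regions called at P2, P5 and P8 in the 2 Irx clusters against distance in kb from the higher-coordinate end of Irx3 (above) and Irx1 (below). Bar height is the percentile within the list of that age, and black boxes are the genes; the tallest bars, beside Irx5 and Irx2, stand at all 3 ages, while bars present at P8 and not at P2 are mostly low and lie between the genes.

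The distance limit fell inside the Irx loci. Just within it lay regions at 99.0 kb from Irx5 (called at P5 and P8), 98.8 kb from Irx4 (called at all 3 ages) and 98.6 kb from Irx5 (called at P2 alone). Just outside lay regions at 101.3 kb from Irx1 (called at P8 alone), 101.8 kb from Tshz2 and 104 kb from Tshz3 (both called at P2 alone).

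Dlx and Msx genes lost regions and gained only 1. All 7 had regions, in sum 23, 18 and 15 over P2, P5 and P8, with 9 lost (39.1%, 22.2 to 59.2) and 1 gained (6.67%, 1.19 to 29.8). The intervals include the 31.7% and 19.0% of all regions. Dlx3, a regulator of skin, hair and bone, had 6, 3 and 4 regions over P2, P5 and P8, and its highest region, chr11:95116928-95117426, 2.69 kb outside the gene, stood at percentiles 76.7, 75.9 and 74.1. Dlx6 had 4, 3 and 2. A region 32.5 kb from Dlx6, chr6:6830360-6830871, was the highest-ranked loss of all 243 regions, at percentile 65.6 at P2 and 49.0 at P5, with no call at P8. The 1 gained region, chr6:6862649-6863147, was at percentile 0.932 at P8 and lay 222 bases from a lost Dlx6 region.

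Dlx5, the neighbour of Dlx6, had 3, 4 and 3 regions, with none lost. In the Dlx5 and Dlx6 window as a whole, 8, 8 and 6 regions were called, and in the Dlx1 and Dlx2 window 10, 9 and 8. The highest region of Dlx2, which with Dlx1 is known for its role in forebrain interneurons, lay 52.0 kb from the gene at chr2:71598772-71599272 and was called at percentiles 79.5, 71.5 and 75.4. Msx1 and Msx2, targets of Bmp signalling in many tissues, each kept the region over the start and lost the others. The Msx1 start region, chr5:37824364-37824903, stood at percentiles 39.7, 24.6 and 38.6, and that of Msx2, chr13:53472555-53473114, at 52.1, 36.7 and 48.8. Msx1 lost 2 regions and Msx2 1, and neither gained any.

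Paired-like genes had few regions, and a large share of them turned over. Of 7 members, Prrx1, Prrx2, Alx4 and Pitx1 had 18 regions, with 12, 7 and 9 called over P2, P5 and P8. Of the P2 regions 7 were lost (58.3%, 32.0 to 80.7) and of the P8 regions 4 were gained (44.4%, 18.9 to 73.3). At these numbers the shares of all regions, 31.7% and 19.0%, lie close to the lower bounds. Alx4, active in limb and skull mesenchyme, had 3 regions in the P2 list, none in the P5 list and 2 in the P8 list, and no region recurred. All of them were low in their lists, at percentiles of 12.1 to 19.2. Prrx2, a mesenchymal gene, had 5, 4 and 4, with the start region shown above at percentile 33.6 at P2 only. Within the gene it kept 3 regions, the highest at P8 being chr2:30870805-30871311, at percentiles 39.4, 26.4 and 54.0. Prrx1, its paralogue, had 2 regions at each age, of which only chr1:163311829-163312327 recurred, at P2 (percentile 47.8) and P8. Pitx1, the gene of a factor of hindlimb identity, kept 1 region at chr13:55850672-55851215, at percentiles 3.22, 19.3 and 57.3.

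Zinc finger homeobox genes held the most regions, most of them inside 2 long genes. The 5 genes had 57, 49 and 45 regions over P2, P5 and P8, with 26 lost (45.6%, 33.4 to 58.4) and 14 gained (31.1%, 19.5 to 45.7). Both intervals lie above the 31.7% and 19.0% of all regions but include the 38.1% and 24.7% of regions over 1 kb from gene ends. Inside the genes lay 88.2% (79.0 to 93.6) of these regions, against 67.1% of all regions with a gene, and 2.63% (0.725 to 9.10) lay within 1 kb of gene ends. Zfhx3 and Tshz2 held 63 of the 76. Without these 2 genes, the family lost 4 of 10 and gained 3 of 9 regions, and all other homeobox genes here lost 42.4% (34.6 to 50.5) and gained 21.7% (14.9 to 30.5). This exclusion was chosen after the data were seen.

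Zfhx3, a large gene of 682 kb with known roles in neurons and the circadian clock, had 28, 20 and 25 regions over P2, P5 and P8. It lost 11 and gained 8, and 16 regions were called at every age. Its highest region at P8, 41.1 kb after the start in the promoter table at chr8:108755479-108756076, stood at percentiles 69.7, 84.1 and 88.7. Of the 11 lost regions 9 were called at P2 alone, and of the 8 gained 7 at P8 alone. The highest lost, chr8:108811661-108812185, stood at 65.4 at P2 and 40.6 at P5, and the highest gained, chr8:108885320-108885818, at 52.4 at P8, 715 bases from a region kept between P2 and P8. The balance of this gene depended on the processing: it had 10 gained and 6 lost at equal list length, and 4 gained and 3 lost when regions went to the nearest gene end.

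Tshz2, a teashirt gene of 440 kb, had 19, 18 and 11 regions over P2, P5 and P8, with 11 lost and 3 gained. At equal list length it had 7 lost and 3 gained, and in the upper 50% of the lists 1 lost and 1 gained. Of the 11 lost in the full lists, 6 were still called at P5. The highest lost region lay 10.9 kb outside the gene at chr2:169621094-169621594, at percentile 64.8 at P2 and 43.8 at P5. Its start region, chr2:169632406-169632910, was called at percentiles 74.4, 67.9 and 63.5, and a region 31.9 kb into the gene, chr2:169664112-169664672, at 27.2, 37.0 and 78.0. A gained region inside it, chr2:169996447-169996951, at 56.5 at P8, lay 70 bases from a region called at P2 alone. Tshz3 had 5, 4 and 3 regions and Zfhx4 5, 6 and 5. The highest gained region of the family was in Zfhx4, at chr3:5388586-5389131, percentile 34.1 at P5 and 57.7 at P8, 278 bases from a lost one. Tshz1 had 1 region, called at P5 and P8.

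**Figure D4:**
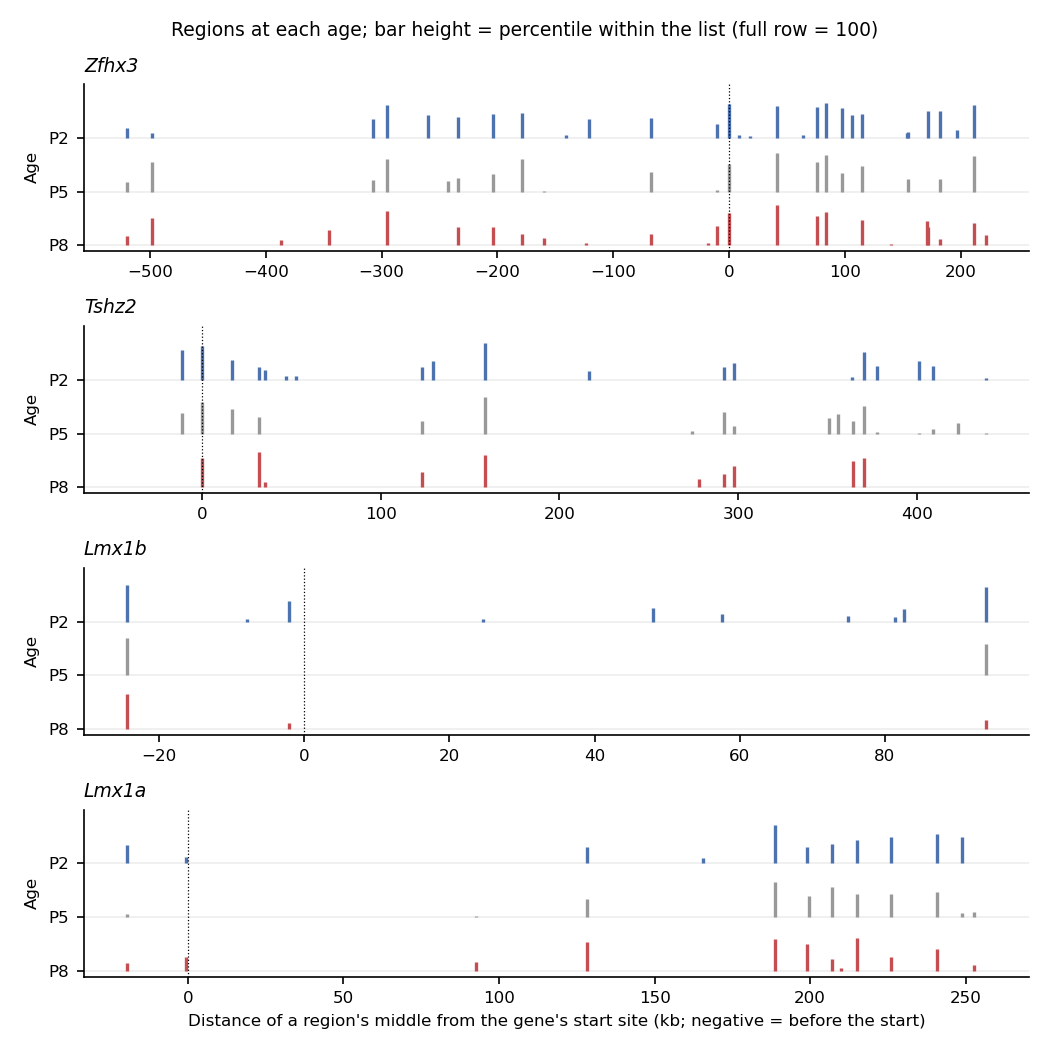
Regions of Zfhx3, Tshz2, Lmx1b and Lmx1a at P2, P5 and P8, by distance in kb from the start site in the promoter table (dotted line); bar height is the percentile within the list of that age. Lmx1b has 10, 2 and 3 bars for P2, P5 and P8, while Lmx1a keeps 9 of 12 from P2 to P8, most of them beyond the gene's far end.

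Among the LIM homeobox genes, most losses were of Lmx1b and Lhx2. The 5 genes had 30, 18 and 18 regions over P2, P5 and P8, with 15 lost (50%, 33.2 to 66.8) and 3 gained (16.7%, 5.84 to 39.2). The share lost lay above the 31.7% of all regions, but its interval includes the 38.1% of regions over 1 kb from gene ends, and the share gained was near the 19.0% of all. Lmx1b, known for dorsal limb and brain patterning, had 10, 2 and 3 regions over P2, P5 and P8. All 7 of its lost regions were called at P2 alone, none above percentile 29.7, and 4 of them lay inside the gene. The 2 regions called at every age lay outside it, at chr2:33665295-33665802, 24.1 kb outside the gene (percentiles 79.9, 82.1 and 76.4), and at chr2:33546885-33547398, 13.6 kb beyond its other end (75.8, 67.6 and 20.1). At equal list length Lmx1b had 3 lost and 0 gained, at an IDR of at most 0.01 4 lost and 0 gained, and in the upper 50% of the P2 list it had no lost region.

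Its paralogue Lmx1a had 12, 11 and 12 regions over P2, P5 and P8, with 3 lost and 3 gained. That balance depended on the processing, with 4 gained and 1 lost at equal list length, and 1 gained and 2 lost at an IDR of at most 0.01. Most lay beyond the far end of the gene, 5.98 to 97.1 kb outside it. The highest of these at P2, chr1:167877834-167878445, stood at percentiles 83.7, 78.3 and 71.3, and inside the gene a region at chr1:167817601-167818108 stood at 35.7, 39.8 and 63.5. The region at the edge of its promoter window, chr1:167688813-167689313, was called at P2 (14.6) and P8 (30.2) but not at P5. Lhx2, a factor of eye, forebrain and hair follicle development, had 5, 2 and 1 regions over P2, P5 and P8. The one over its promoter window, chr2:38350713-38351284, stood at percentile 62.3 at P2 and 9.27 at P5. Isl1, expressed in developing sensory and neuronal cells of the ear, kept its start region, chr13:116309476-116309975, at 85.3, 75.8 and 81.3, and had 3, 2 and 2 regions. Lhx9 had a single region, called at P5 alone.

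Among the remaining genes, start regions were mostly kept. Six2, best known in kidney progenitors, had 7, 6 and 4 regions at P2, P5 and P8, with 4 lost and 1 gained, and its start region, chr17:85688118-85688691, stood at percentiles 86.6, 89.3 and 86.4. Six4 had 1 region, over its start, at 90.6, 85.1 and 80.9. Onecut1, a regulator of liver and pancreas development, had 4, 2 and 2 regions over P2, P5 and P8, and the region over its start, chr9:74861589-74862087, was at percentile 36.5 at P2 and not called afterwards. Onecut2 kept both of its regions. Satb1, a chromatin organiser, had 4, 5 and 3, with a region called throughout over some, but not all, of its start sites. Emx2 had 4, 4 and 3 regions, none over its start, and the 3 called at every age included chr19:59541531-59542029, 76.2 kb from the gene, at percentiles 71.0, 63.9 and 61.8. Hmx3 had 1 region, 1.12 kb outside the gene, at 57.4, 53.7 and 39.8.

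Most changed regions were low in the lists, but 12 were not. Gained regions had a median percentile of 16.3 in the P8 list, against 48.2 for kept ones, and lost regions a median of 18.2 in the P2 list, against 56.5 for kept ones. Over all regions with a gene, these medians were 20.8 and 59.8 at P8, and 23.2 and 66.5 at P2. In the upper 50% of the P8 list lay 5 gained regions, 1 each of Irx1, Irx4, Zfhx4, Tshz2 and Zfhx3 (8.93% of the 56 there, 3.87 to 19.3, against 4.25% of all). In the upper 50% of the P2 list lay 7 lost regions, 1 each of Dlx6, Tshz2, Lhx2, Lmx1a and Pbx3 and 2 of Zfhx3. All of these lost regions but 1 of Zfhx3 were still called at P5. The 18 regions called at P5 alone had a median percentile of 23.0 and none lay in the upper 50%. Over all regions with a gene, those called at P5 alone had a median of 13.0, with 103 of 3458 in the upper 50%.

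**Figure D5:**
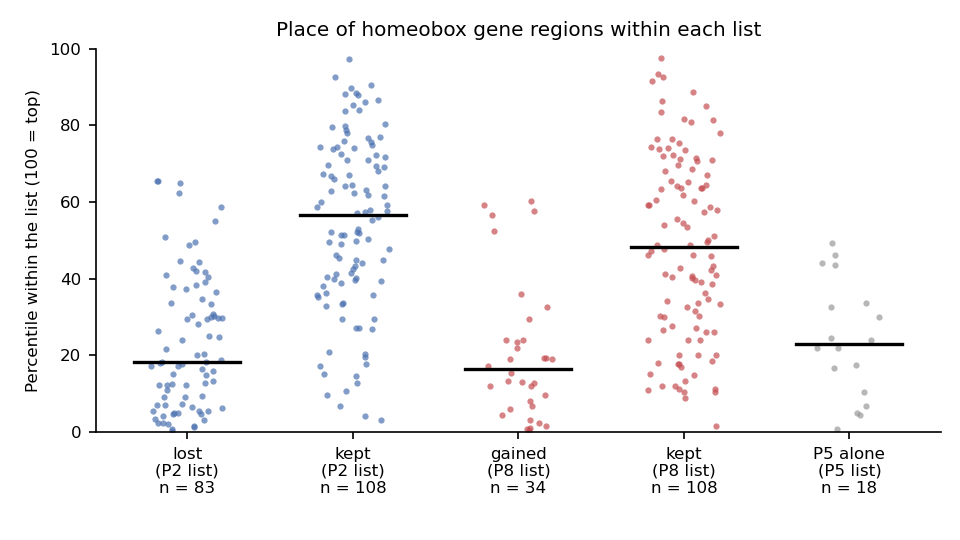
Percentile of each region of the homeobox genes within its list (100 at the top): 83 lost and 108 kept regions in the P2 list, 34 gained and the same 108 kept regions in the P8 list, and 18 called at P5 alone. Horizontal bars are medians; lost and gained regions have medians of 18.2 and 16.3, kept regions of 56.5 at P2 and 48.2 at P8.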

How the data were processed

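Per the submitters' processing notes, the tools were Subread 1.4.6-p3, MACS2 2.1.0 and Trimmomatic 0.33 on mm10. Their settings, any read shift or filter, and which animals entered a list are not given in the sources used here. For each age, the authors deposited 1 peak list in the 20-column layout of the irreproducible discovery rate (IDR) method, with peaks 499 bp wide and an IDR score (−log10 IDR) that corresponds to an IDR of at most 0.05. Peaks were ranked by the authors' deposited −log10 p-value, within a list only. Starts were taken to be 0-based, and positions are printed 1-based.

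Regions, closest genes (RefSeq, GRCm38.p6, the build of mm10) and distances were computed in Python 3.11.15 with pandas 2.3.3, by functions tested on simulated peaks. Ties went to the gene with the nearest end. Counts at each age are given for genes with 10 or more regions or with gains and losses that differ by 2 or more, and positions for the highest-ranked gained, lost and kept regions; other genes and positions were named after their values were seen. Members, lists and families were chosen with earlier results of these data known. No test was possible with 1 list per age; Wilson 95% intervals came from scipy 1.17.1. Alternatives were stricter peaks, equal list length, other overlaps and other gene distances.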

Additional observations from a re-analysis of the deposited data

How the results depend on the processing

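With 1 list per age no animal could be left out. No paired analysis was possible because each age has 1 list that names no animal. Over the 44 genes, the shares lost and gained from P2 to P8 stayed above those of all regions under all 12 alternatives, of which 3 were chosen after seeing the data, by 2.47 to 15.9 points for losses and by 0.701 to 8.27 points for gains. At equal list length (43878 peaks each) the share lost was 33.6%, and the net gain of the windows was −1 for Dlx1 and Dlx2, −1 for Dlx5 and Dlx6, 4 for Irx1, Irx2 and Irx4 and 10 for Irx3, Irx5 and Irx6, against −2, −2, −2 and 5 in the full lists. With peaks at an IDR of at most 0.01 these were −1 for Dlx1 and Dlx2, 2 for Irx1, Irx2 and Irx4 and −1 for Irx3, Irx5 and Irx6, and 0 for Hmx2 and Hmx3. With only the upper 50% of a list, the shares lost from P2 to P8 were 10% over all 44 genes, 5.26% for TALE, 11.1% for Dlx and Msx and 14.3% for zinc finger genes, against 7.53% of all regions, so that TALE losses were below the share of all. The shares gained were then 8.93%, 10.5%, 0% and 17.6% in the same order, and 0% for paired-like genes, which had no P2 region there, against 4.25% of all. From P2 to P5 the 44 genes then lost 2.86% and gained 0%, against 2.90% and 2.62% of all, and from P5 to P8 they lost 1.72% and gained 3.57%, against 2.93% and 1.72% of all. Of these 4 shares 3 were thus no longer above that of all regions. The share gained by TALE genes was 8.70% within 50 kb, 5.88% within 20 kb and 14.6% when every gene within 50 kb was counted, each below that of all regions. That of Dlx and Msx genes was 0% for regions over 1 kb from gene ends, and 0% with peaks up to 1 kb apart merged, when the Dlx1 and Dlx2 window was at −1. Net gains turned round for Zfhx3 (4 at equal list length, 1 by nearest gene end), Irx3 (−1 at an IDR of at most 0.01) and Irx1 (−1 within 50 kb, −1 within 20 kb and −1 with every gene within 50 kb). At equal list length Meis2, Dlx3, Msx1 and Onecut1 each lost 1 region and gained 0, against 4 lost for Meis2 and 2 for the others in the full lists, and Dlx6 gained 2 and lost 3. Within 50 kb, Pbx3 lost 1 and Six2 lost 2 and gained 1. Of 176 net gains of the 16 genes named by count, 116 kept their direction within 1.5 times, 54 moved further or to 0, and 6 were reversed. The causes were not tested. Depth is unknown, and the longer P2 list limits any reading of losses.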
